A study of Saccharomyces cerevisiae with 2 samples.

Results

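The 10 genes described here encode the enzymes of upper glycolysis in the budding yeast Saccharomyces cerevisiae. They were chosen as a pathway, by name, and the rule used no expression values, although earlier results of these data were known when it was made. They comprise HXK1 (YFR053C), HXK2 (YGL253W) and GLK1 (YCL040W) for glucose phosphorylation, PGI1 (YBR196C), PFK1 (YGR240C), PFK2 (YMR205C), FBA1 (YKL060C), TPI1 (YDR050C), and PFK26 (YIL107C) and PFK27 (YOL136C), which make the regulator fructose 2,6-bisphosphate. All 10 were found among the 7163 features of the deposited table of FPKM values (counted fragments scaled by gene length and library size). RNA was sequenced from UV02_HG and from MF02, which the labels call wild type. Both strains were cultured at 40% (w/v) glucose and collected in mid-exponential phase. By its title, the series concerns high glucose tolerance. The labels name no alleles and do not say how UV02_HG was derived. The labels give 1 sample per strain and the table has 2 columns of values per strain, which were treated as runs of 1 sample. The series' design text speaks of duplicates, but nothing ties the columns to separate cultures. There is therefore no replicate check of any difference between the strains, no p-value was computed, and values are given per column. In bulk RNA, fewer cells with a transcript and less transcript per cell cannot be told apart.

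Upper glycolysis carries glucose to a pair of triose phosphates and consumes ATP on the way. Hexokinases trap glucose as glucose 6-phosphate, which PGI1 turns into fructose 6-phosphate. Phosphofructokinase, an octamer of the PFK1 and PFK2 subunits, adds the next phosphate and is switched on by fructose 2,6-bisphosphate. Aldolase (FBA1) then splits the sugar, and TPI1 interconverts the products. In this yeast Hxk2 is known as the main hexokinase during growth on glucose and also acts in glucose repression, whereas HXK1 and GLK1 are known as genes that glucose represses.

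Counted reads numbered 12507299 and 13040931 in the UV02_HG columns and 12796339 and 15144991 in the MF02 columns. Coding length and the log2 ratio of UV02_HG over MF02 had a Spearman's rho of -0.53 across 5695 genes, and genes do not count as replicates here. The MF02 columns differed by length between themselves as well (rho of 0.62 for column 2 over column 1), and the UV02_HG columns less so (0.07). A value relative to length, obtained by subtracting from a log2 ratio the median of its neighbours in coding length (100 genes on each side), is therefore given for each gene and gene list beside the raw ratio. Raw log2 ratios put UV02_HG over MF02, from the column means with 1 FPKM added to each, and a bracketed range runs over the 4 comparisons of single columns. The cause of the length trend was not tested.

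By column means, each of the 10 genes was lower in UV02_HG by 2-fold or more. The same was true of 47.2% of the 6291 features that reached 1 FPKM in UV02_HG or MF02, while 14.7% of features and 0 of the 10 genes were higher by 2-fold or more. The median log2 ratio of the 10 genes was -2.16, against -0.89 over all features. In every one of the 4 column comparisons 8 of the 10 were at least 2-fold lower (24.9% of all features, with 8.68% higher in every comparison), the exceptions being GLK1 and TPI1. Relative to length 9 of 10 lay below genes of the same length, as did 49.7% of all genes, and 4 of 10 were at least 2-fold below (16.7% of genes, with 17.1% at least 2-fold above), namely HXK1, PGI1, PFK1 and PFK27. The median of the 10 relative to length was -0.83. The 10 genes together took 1.44% and 1.37% of all counted reads in the UV02_HG columns, and 5.09% and 3.98% in the MF02 columns. Reads were recovered from FPKM and coding length, and the length trend was not removed from these shares. The exact 95% counting interval of the largest of these shares ran from 5.08% to 5.10%. Counting intervals cover counting error only.

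**Figure D1:**
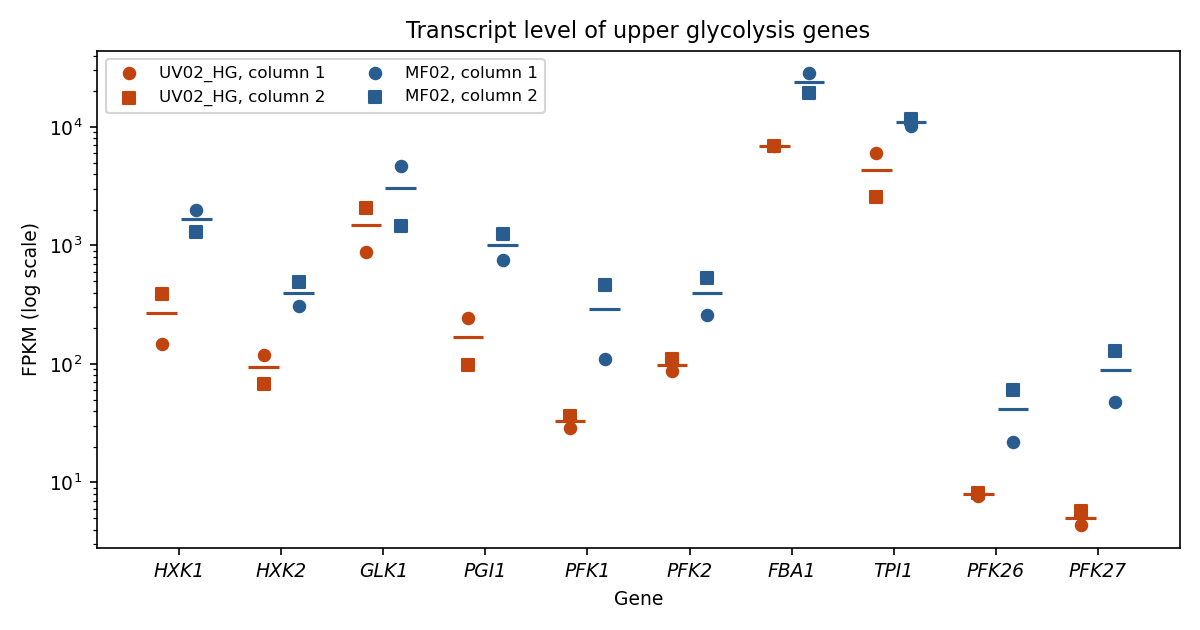
FPKM of each upper glycolysis gene on a log axis, with UV02_HG left of MF02, circles for column 1, squares for column 2 and a bar at the mean of the columns. The UV02_HG points lie below the MF02 points for 9 of the genes. Among all features this held for 56.4%, with 20.7% the other way round. For GLK1 the second UV02_HG column (2083 FPKM) lies above the second MF02 column (1471 FPKM).

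**Figure D2:**
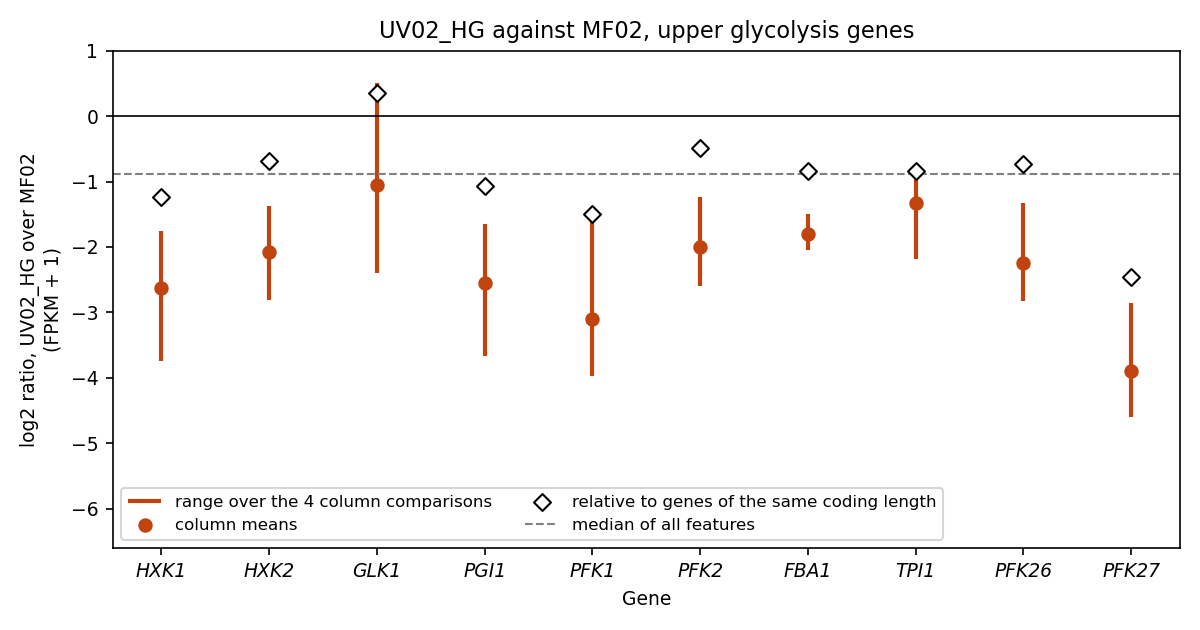
Log2 ratio of UV02_HG over MF02 for each gene from column means (filled circles), its range over the 4 column comparisons (bars) and its value relative to coding length (diamonds), with the median of all features at -0.89 as a dashed line. PFK27 has the lowest ratio of the 10, -3.89, and GLK1 is the gene whose range reaches above 0 and whose value relative to length, 0.35, is positive.

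Levels among the 10 genes spanned several orders of magnitude, and their order was nearly the same in both strains. FBA1 was highest, with column means of 6865 FPKM in UV02_HG and 23831 FPKM in MF02, followed by TPI1, GLK1, HXK1 and PGI1 in both strains. In UV02_HG the order then ran PFK2, HXK2, PFK1, PFK26 and PFK27, and in MF02 it ran HXK2, PFK2, PFK1, PFK27 and PFK26. Neighbours in the order whose column ranges overlapped were HXK1 with PGI1, PGI1 with PFK2 and PFK2 with HXK2 in UV02_HG. In MF02 they were GLK1 with HXK1, HXK2 with PFK2, PFK2 with PFK1, PFK1 with PFK27 and PFK27 with PFK26. Within each MF02 column GLK1 was nevertheless above HXK1, PFK2 above PFK1, PFK1 above PFK27 and PFK27 above PFK26. The overlapping pairs of UV02_HG, and HXK2 with PFK2 in MF02, changed order between the columns and did not stand apart beyond the column spread.

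The glucose-phosphorylating genes parted by isozyme. HXK1, the hexokinase isozyme 1 gene on chromosome VI, had 149 and 387 FPKM in UV02_HG and 2007 and 1309 FPKM in MF02. HXK2, the hexokinase isozyme 2 gene on chromosome VII, had 119 and 68.3 FPKM in UV02_HG and 310 and 488 FPKM in MF02. Both UV02_HG columns lay below both MF02 columns for each gene, which held for 56.4% of all features, with 20.7% the other way round. GLK1, the glucokinase gene on chromosome III, had 876 and 2083 FPKM in UV02_HG and 4635 and 1471 FPKM in MF02, so that its groups overlapped. By column means HXK1 was 6.17-fold lower in UV02_HG (3.37 to 13.4), HXK2 4.23-fold lower (2.60 to 7.05) and GLK1 2.06-fold lower, with a log2 range of -2.40 to 0.50. Set against length, the log2 values were -1.24 for HXK1, -0.69 for HXK2 and 0.35 for GLK1. The summed FPKM of the 3 genes was 1143 and 2538 in UV02_HG and 6951 and 3268 in MF02, 2.78-fold lower by means.

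Because the coding lengths of the 3 genes are close (1458 nt in HXK1, 1461 nt in HXK2 and 1503 nt in GLK1), their shares within a column are little touched by the length trend or by scaling. GLK1 made up 76.6% and 82.0% of the summed FPKM in UV02_HG, against 66.7% and 45.0% in MF02. HXK1 made up 13.0% and 15.3% in UV02_HG, against 28.9% and 40.1% in MF02. For both genes the columns of the strains did not overlap, with the GLK1 share higher and the HXK1 share lower in UV02_HG. GLK1 stood 5.90 and 5.38 times as high as HXK1 in UV02_HG, and 2.31 and 1.12 times as high in MF02. HXK2 had the smallest share in all 4 columns, with 10.4% and 2.69% in UV02_HG and 4.45% and 14.9% in MF02. The HXK2 shares of the strains overlapped, and the columns of 1 strain differed more than the strain values of 5.08% in UV02_HG and 7.80% in MF02. Counting error was small beside this spread, with exact 95% intervals of 9.96% to 10.8% and 2.55% to 2.84% for HXK2 in the UV02_HG columns.

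**Figure D3:**
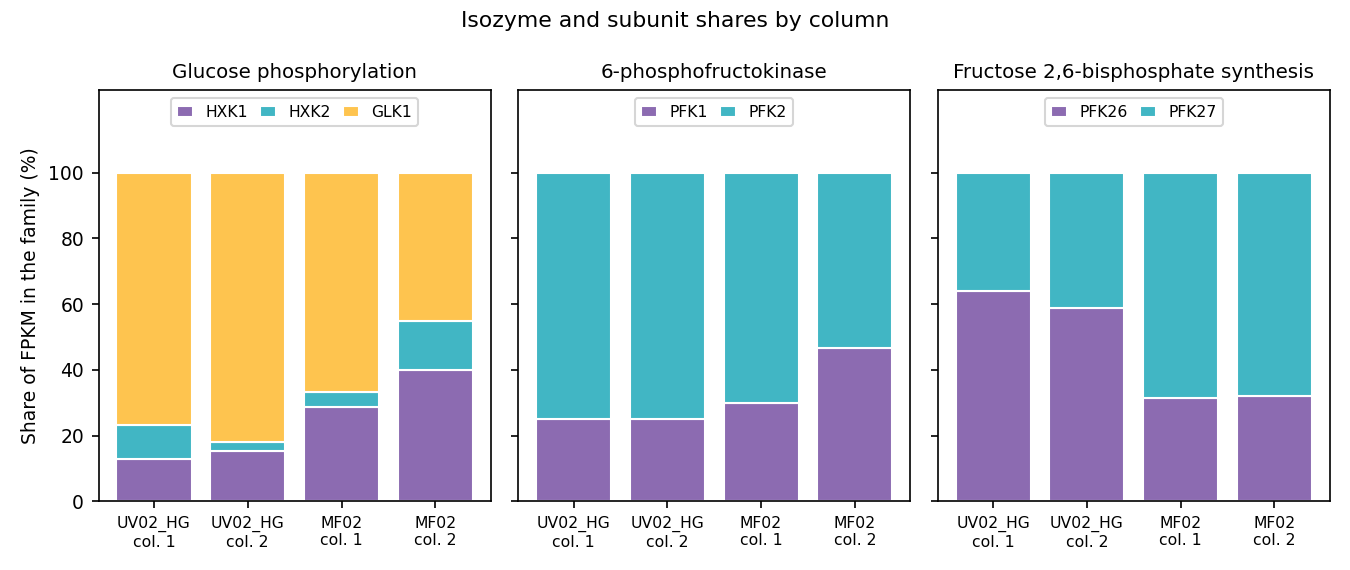
Share of FPKM held by each gene within the hexokinases, the phosphofructokinase subunits and the 6-phosphofructo-2-kinases, in percent, for columns 1 and 2 of UV02_HG and then of MF02. The GLK1 part is taller in both UV02_HG columns (76.6% and 82.0%) than in the MF02 columns (66.7% and 45.0%), and the PFK26 part is above 50% in UV02_HG only.

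Within each strain, GLK1 and HXK1 moved together between the columns and against HXK2. In UV02_HG column 2 stood at 2.38 times column 1 for GLK1, 2.61 times for HXK1 and 0.577 times for HXK2. In MF02 the same ratios were 0.317 for GLK1, 0.652 for HXK1 and 1.58 for HXK2. The 3 genes have nearly the same length, and none of the exact 95% counting intervals of these ratios reached 1. PGI1 and TPI1 went with HXK2, with ratios of column 2 to column 1 of 0.403 and 0.425 in UV02_HG and 1.64 and 1.16 in MF02. The columns of a strain are thus not interchangeable for these genes, and the labels do not say whether they came from separate cultures.

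The upstream sequences of the hexokinase genes are shown because GLK1 and HXK1, which moved together between columns, share a motif not found before HXK2. That split is not particular to this motif, as other motifs given below showed it too. The hexokinase genes were picked for display after their values were seen. The stress response element CCCCT, the motif bound by Msn2 and Msn4, was searched on both strands in the 500 nt before the start codon in the R64 reference genome of strain S288C (NCBI RefSeq). It occurred 3 times before GLK1, 3 times before HXK1 and 0 times before HXK2. It also occurred 1 time before TPI1 and before PFK26, and TPI1 moved with HXK2 between the columns. PFK26 did not move with GLK1 and HXK1 either, with column 2 at 1.05 times column 1 in UV02_HG and 2.78 times in MF02. Any link of the motif to the column differences was not tested. Of 6006 genes, 34.1% had it at least once and 1.83% had it 3 times or more. Capitals mark CCCCT or its reverse complement AGGGG, read along the strand of the gene. Each stretch is 300 nt long. They are chrIII:50438-50737 (plus strand, beginning 400 nt before the GLK1 start codon), chrVI:255250-255549 (minus strand, beginning 500 nt before the HXK1 start codon) and chrVII:23535-23834 (plus strand, beginning 400 nt before the HXK2 start codon). The coordinates are those of R64, as the authors' build was not named, and the strains' own sequences were not analysed here.
GLK1: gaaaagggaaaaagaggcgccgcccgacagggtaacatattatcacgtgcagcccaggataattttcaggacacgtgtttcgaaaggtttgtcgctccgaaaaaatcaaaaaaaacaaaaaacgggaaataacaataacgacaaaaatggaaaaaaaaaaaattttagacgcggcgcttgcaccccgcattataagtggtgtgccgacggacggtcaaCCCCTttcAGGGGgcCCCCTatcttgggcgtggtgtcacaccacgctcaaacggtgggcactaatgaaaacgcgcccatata
HXK1: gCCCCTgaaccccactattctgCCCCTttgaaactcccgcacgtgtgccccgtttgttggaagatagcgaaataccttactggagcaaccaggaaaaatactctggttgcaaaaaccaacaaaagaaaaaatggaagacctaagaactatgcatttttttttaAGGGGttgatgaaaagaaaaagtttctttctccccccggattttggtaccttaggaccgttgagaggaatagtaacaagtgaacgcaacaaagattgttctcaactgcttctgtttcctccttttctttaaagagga
HXK2: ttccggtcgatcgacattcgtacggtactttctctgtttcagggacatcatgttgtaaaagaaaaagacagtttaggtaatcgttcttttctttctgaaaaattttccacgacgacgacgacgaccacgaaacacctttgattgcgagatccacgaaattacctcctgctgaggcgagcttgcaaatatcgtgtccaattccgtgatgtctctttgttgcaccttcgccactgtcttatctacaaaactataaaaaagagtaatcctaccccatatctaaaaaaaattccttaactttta
In GLK1 the 3 elements began 182, 174 and 167 nt before the start codon, the middle one on the opposite strand. In HXK1 they began 499, 478 and 337 nt before it, the last one on the opposite strand. A match describes these letters only and is not evidence of binding.

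Other motifs were searched in the same windows. CTTCC, the core of the motif of the glycolytic activator Gcr1, was found before 9 of the 10 genes, HXK2 being the exception, and before 66.1% of all genes. CACCCA, a core of the Rap1 motif, was found before PGI1 (3 times) and HXK1 (1 time), and before 14.1% of all genes. The 4 forms taken for the repressor Mig1, which are CCCCAC or CCCCAG or CCCCGC or CCCCGG, were found before HXK1, GLK1 and PFK27, and before 22.7% of all genes. None of these forms contains CCCCT, although they share its first 4 letters. The Gcr1 and Mig1 motifs, like CCCCT, were thus found before GLK1 and HXK1 and not before HXK2. The absence of a match says only that the letters of that motif are not in the window.

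PGI1, the single phosphoglucose isomerase gene, on chromosome II, had 242 and 97.6 FPKM in UV02_HG and 759 and 1246 FPKM in MF02. It was 5.87-fold lower in UV02_HG (3.12 to 12.7) and stood at -1.07 relative to length. Of the 200 genes nearest in length, 172 had a higher ratio.

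PFK1, the gene of the alpha subunit of phosphofructokinase, on chromosome VII, had 28.9 and 36.7 FPKM in UV02_HG and 110 and 467 FPKM in MF02. PFK2, the gene of the beta subunit, on chromosome XIII, had 86.9 and 110 FPKM in UV02_HG and 260 and 533 FPKM in MF02. Both genes were low in both UV02_HG columns without overlap, as were 56.4% of all features (20.7% the other way round). The MF02 columns of PFK1 lay 4.22-fold apart. PFK1 was 8.57-fold lower in UV02_HG (2.96 to 15.7), and 193 of the 200 genes nearest in length had a higher ratio. PFK2 was 3.99-fold lower (2.34 to 6.07), and 137 of 200 had a higher ratio. Relative to length the log2 values were -1.49 for PFK1 and -0.48 for PFK2. The subunits have similar coding lengths (2964 nt in PFK1 and 2880 nt in PFK2), and they sit in 1 complex in equal number. PFK1 made up 24.9% and 24.9% of their summed FPKM in UV02_HG, against 29.8% and 46.7% in MF02. PFK2 was 3.01 times PFK1 in both UV02_HG columns, and 2.36 and 1.14 times PFK1 in MF02. The PFK1 share was thus lower in UV02_HG in all 4 column comparisons, by a small margin against MF02 column 1 and a wide one against MF02 column 2. The counting interval was 23.6% to 26.3% in UV02_HG column 1 and 29.0% to 30.6% in MF02 column 1.

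FBA1, the fructose-bisphosphate aldolase gene on chromosome XI, had 6867 and 6863 FPKM in UV02_HG and 28296 and 19367 FPKM in MF02. TPI1, the triose phosphate isomerase gene on chromosome IV, had 6068 and 2579 FPKM in UV02_HG and 10074 and 11734 FPKM in MF02. Both genes were lower in UV02_HG without overlap of columns, as were 56.4% of all features (20.7% the other way round). The fold was 3.47 for FBA1 (2.82 to 4.12), the narrowest range of the 10 genes, and 2.52 for TPI1 (1.66 to 4.55). FBA1 (1080 nt) and TPI1 (747 nt) are the shortest of the 10 genes, and relative to length they stood alike, at -0.83 and -0.84. FBA1 alone held 92755 and 96653 reads in UV02_HG and 391051 and 316772 reads in MF02, over 50% of the reads of the 10 genes in every column.

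**Figure D4:**
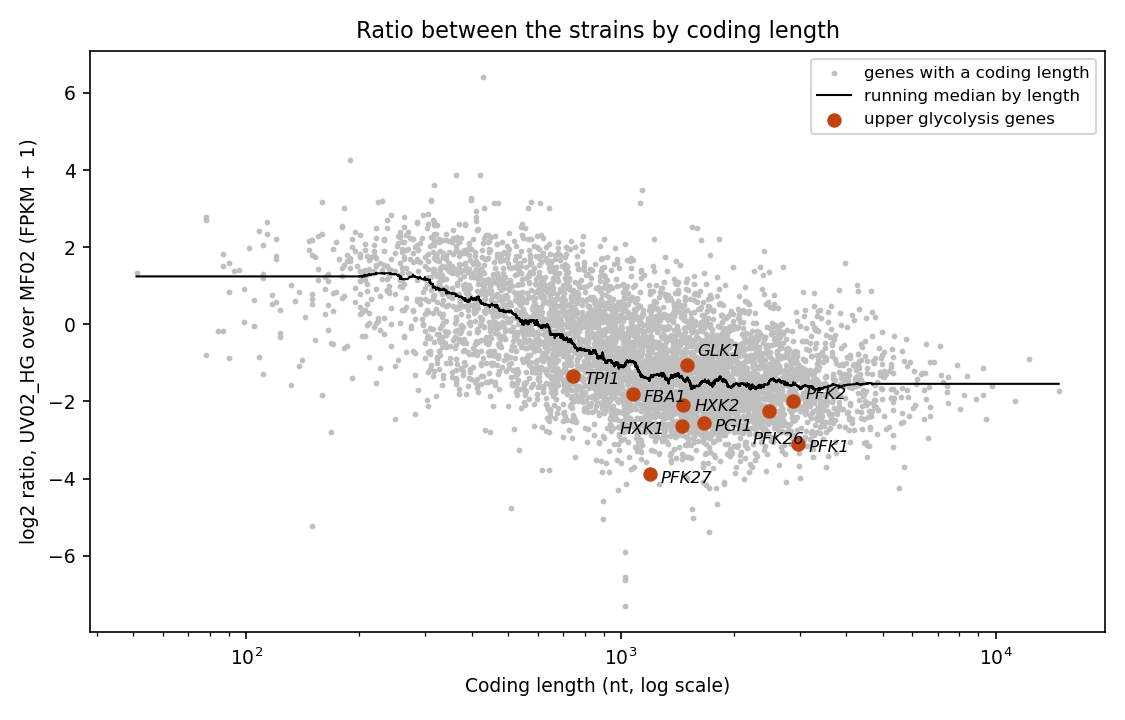
Log2 ratio of UV02_HG over MF02 against coding length (log axis) for 5695 genes in grey, with the running median by length as a line and the upper glycolysis genes as labelled points. GLK1 lies above the line and the other 9 lie below it, PFK27 farthest, at -2.46.

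The genes that make fructose 2,6-bisphosphate had the lowest mean FPKM of the 10 in both strains. PFK27, a 6-phosphofructo-2-kinase gene on chromosome XV, had 4.35 and 5.72 FPKM in UV02_HG and 47.5 and 129 FPKM in MF02. These values rested on 65 and 89 reads in UV02_HG and 725 and 2339 reads in MF02. PFK26, the other 6-phosphofructo-2-kinase gene, on chromosome IX, had 7.72 and 8.12 FPKM in UV02_HG and 21.9 and 60.8 FPKM in MF02. Columns of the strains were apart for both genes, with UV02_HG lower, as for 56.4% of all features (20.7% the other way round). The UV02_HG columns of each gene lay close together. PFK27 was 14.8-fold lower in UV02_HG (7.21 to 24.4), the largest difference of the 10. All of the 200 genes nearest in length had a higher ratio than PFK27, whose value relative to length was -2.46. The ratio of its reads per library total was 0.0550, with an exact 95% counting interval of 0.0464 to 0.0646. PFK26 was 4.75-fold lower (2.51 to 7.09) and stood at -0.73 relative to length.

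The order of the pair per length was PFK26 above PFK27 in UV02_HG and the opposite in MF02. PFK26 made up 64.0% and 58.7% of the summed FPKM in UV02_HG, against 31.6% and 32.0% in MF02. PFK27 was 0.563 and 0.704 times PFK26 in UV02_HG, and 2.17 and 2.13 times PFK26 in MF02. The columns of 1 strain lay within each other's counting intervals (57.3% to 70.3% and 52.7% to 64.6% in UV02_HG), and the strains were far apart. In reads not divided by length, the PFK26 share was 76.6% in UV02_HG and 49.3% in MF02. PFK27 has a coding length of 1194 nt and PFK26 one of 2484 nt.

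FBP26, whose product breaks fructose 2,6-bisphosphate down, had 43.1 and 46.8 FPKM in UV02_HG and 54.5 and 63.0 FPKM in MF02. It was 1.30-fold lower in UV02_HG (1.16 to 1.45) and stood at 1.01 relative to length. PFK27 was 0.101 and 0.122 times FBP26 in UV02_HG, and 0.870 and 2.05 times FBP26 in MF02. FBP1, which encodes fructose-1,6-bisphosphatase and runs against phosphofructokinase in gluconeogenesis, had 20.1 and 25.5 FPKM in UV02_HG and 19.0 and 5.86 FPKM in MF02. Its log2 ratio was 0.82, with a range of 0.07 to 1.95, and 1.81 relative to length. Of the 5 genes listed as opposing glycolysis, 2 were at least 2-fold lower and 0 at least 2-fold higher, with a median of -0.47, beside 47.2% and 14.7% of all features. Relative to length 1 of the 5 was at least 2-fold lower and 3 were at least 2-fold higher (FBP1, FBP26 and PCK1), with a median of 1.01. The shares of all genes were 16.7% and 17.1%. Before this adjustment FBP26 and PCK1 were lower in UV02_HG. The pyruvate carboxylase genes PYC1, at 6.93-fold, and PYC2, at 3.98-fold, were the lower members, at -1.17 and -0.37 relative to length. PCK1, the phosphoenolpyruvate carboxykinase gene, had a log2 ratio of -0.47 and stood at 1.03 relative to length.

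The 9 genes of lower glycolysis were all at least 2-fold lower as well (47.2% of all features), with a median log2 ratio of -2.00. In all 4 column comparisons 6 of the 9 were at least 2-fold lower (24.9% of all features). Relative to length 4 of the 9 were at least 2-fold lower (16.7% of genes), with a median of -0.90. The glyceraldehyde phosphate dehydrogenase gene TDH1 (12.1-fold) and the pyruvate kinase gene CDC19 (10.8-fold) were lowest. The enolase genes ENO2 (5.38-fold) and ENO1 (4.13-fold) and the phosphoglycerate mutase gene GPM1 (4.01-fold) lay between. TDH2 (3.90-fold), the second pyruvate kinase gene PYK2 (3.31-fold), TDH3 (2.65-fold) and the phosphoglycerate kinase gene PGK1 (2.48-fold) differed least. Relative to length the log2 values were -2.52 for TDH1, -2.04 for CDC19, -1.51 for GPM1 and -1.04 for ENO2. The others stood at -0.90 (TDH2), -0.67 (ENO1), -0.32 (TDH3), -0.27 (PYK2) and -0.01 (PGK1), so that PGK1 was level with genes of its length. TDH2 with TDH3 and ENO1 with ENO2 are near-identical copies whose reads may have been split. The 10 genes of the upper part and the 9 of the lower part thus had medians of -2.16 and -2.00, within the range that single columns gave to the upper part (-2.40 to -1.72).

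**Figure D5:**
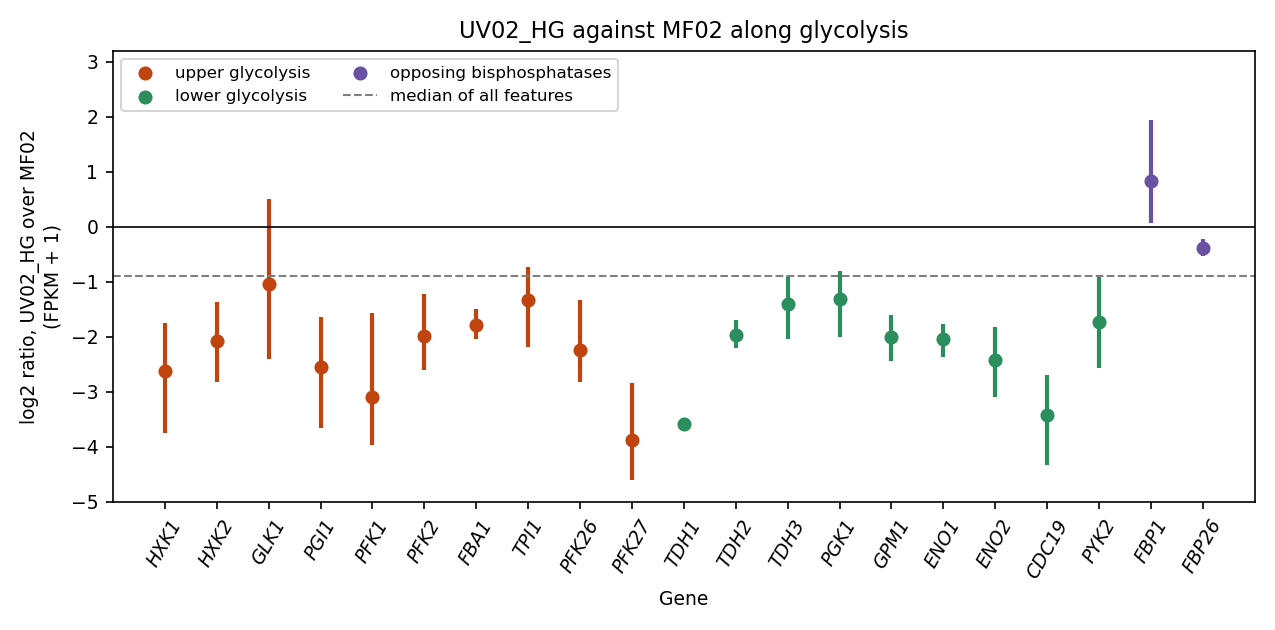
Log2 ratio of UV02_HG over MF02 for the upper glycolysis genes, the lower glycolysis genes and the bisphosphatase genes FBP1 and FBP26, as points from column means with bars for the range over the 4 column comparisons. All 19 glycolysis points lie below the median of all features (-0.89, dashed), and FBP1 (0.82) and FBP26 (-0.38) lie above it.

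Further hexokinase-like genes were measured. EMI2 (YDR516C), a paralogue of GLK1, had 337 and 208 FPKM in UV02_HG and 909 and 692 FPKM in MF02, 2.93-fold lower and at -0.17 relative to length, near the middle of the genes of its length. NGK1 (YLR446W), listed as hexokinase-like, had 25.0 and 31.2 FPKM in UV02_HG and 28.6 and 17.5 FPKM in MF02, with overlapping groups, a log2 ratio of 0.27 and a value of 1.59 relative to length. The median of this pair was -0.64, and 0.71 relative to length.

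Among 6 regulators of glycolytic genes all were at least 2-fold lower by column means (47.2% of all features), with a median of -1.63. With MF02 column 1 alone the count was 2 of 6 and the median -0.79. At that setting 2058 features were at least 2-fold lower, against 2967 with both columns, and the median of all features was -0.52. In all 4 column comparisons 2 of 6 were at least 2-fold lower (24.9% of all features). Relative to length 1 of the 6 was at least 2-fold lower (16.7% of genes), and the median was -0.08. TYE7, an activator gene of glycolysis, was 8.31-fold lower (3.08 to 14.0) with 20.1 and 22.1 FPKM in UV02_HG and 70.1 and 295 FPKM in MF02, and stood at -2.22 relative to length. ABF1 was 5.70-fold lower (-0.95 relative to length), RAP1 3.11-fold (-0.14) and GCR2 3.10-fold (-0.03). GCR1, the activator gene itself, had 6.48 and 7.61 FPKM in UV02_HG and 8.09 and 37.4 FPKM in MF02, and stood at 0.07 relative to length. Of 5 genes tied to Hxk2 in glucose repression, 3 were at least 2-fold lower and 0 higher, near the 47.2% of all features, with a median of -1.50 and of 0.08 relative to length. The count was 1 with MF02 column 1 alone and 4 with MF02 column 2 alone. Over all features these settings gave 2058 and 3254 at least 2-fold lower. In all 4 column comparisons 1 of 5 was at least 2-fold lower (24.9% of all features). Relative to length the count was 1 of 5 (16.7% of genes). The repressor gene MIG1 was 8.29-fold lower and at -1.61 relative to length, SNF1 was 3.18-fold lower (-0.17 relative to length) and REG1 2.83-fold lower (0.11). GLC7 had a log2 ratio of -0.64 and a value of 0.30 relative to length.

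The next list held 9 genes of pathways that branch from glucose 6-phosphate, fructose 6-phosphate or dihydroxyacetone phosphate. Of these, 7 were at least 2-fold lower and 0 higher (47.2% and 14.7% of all features), with a median of -2.34. Relative to length the count was 1 of 9 (16.7% of genes) and the median -0.89. PMI40, the mannose 6-phosphate isomerase gene, was 7.80-fold lower and was the gene that remained past 2-fold relative to length, at -1.65. The trehalose synthesis genes TPS2 and TPS1 were 5.42-fold and 5.18-fold lower (-0.94 and -0.89 relative to length), and the glycerol phosphate dehydrogenase gene GPD1 was 5.19-fold lower (-0.97).

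The 10 genes lie on 9 chromosomes, PFK1 and HXK2 both on chromosome VII, and their coding sequences are 747 to 2964 nt long with a GC content of 35.8% to 49.6%. The lowest GC content belonged to PFK27 and the highest to GLK1, which were also the genes at the ends of the ratios. Between them the order differed, with PFK26 at 37.5% and a log2 ratio of -2.25, and PFK1 at 41.6% and -3.10. Any link of GC content to the ratios was not tested. In the R64 annotation 1 of the 10 overlaps another gene. The first 106 nt of GLK1 overlap YCL042W on the same strand, which had at most 6.51 FPKM in any column, so reads in that stretch cannot be assigned.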

How the data were processed

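The authors deposited FPKM values, scaled by gene length and library size, in 4 columns that the file headers assign to UV02_HG and MF02. Per the submitters' processing notes, Bowtie2 2.2.3, TopHat2 2.0.12 and HTSeq 0.6.1 were used. The sources used here do not give the build or the strand setting, so overlapping and antisense genes are uncertain. Identifiers were matched to R64 locus tags (6045 of 7163 features, 6010 with a coding length), and 4 rows without values were not analysed here. FPKM times coding length gave whole reads, within 0.02, for 99.8% to 99.9% of genes, which gave the library totals. At these depths PFK27, the gene with the fewest reads, had 65 reads in UV02_HG column 1.

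Columns were averaged within a strain, with a pseudocount of 1 FPKM, which understates differences of weakly expressed genes. Features under 1 FPKM in both strains were left out, and 2-fold stands for 1 on the log2 scale. The members and gene lists were chosen with earlier results of these data known. Named were all members, all lower glycolysis genes, up to 4 genes per other list by size of ratio, and 5 features with like values. FBP26 and GCR1, beyond that number, were named for their role. GLK1 and HXK1 shares and the list counts with single columns were added after seeing the data. Ratios, depth recovery and the length adjustment were tested on simulated reads. The tools were matplotlib 3.10.9, scipy 1.17.1, pandas 2.3.3, numpy 2.4.6 and Python 3.11.15.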

Additional observations from a re-analysis of the deposited data

How the results depend on the processing

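The 10 genes kept a negative log2 ratio under all alternatives tried, except GLK1, which stood at 0.35 relative to genes of the same length and at 0.0081 with MF02 column 2 alone. HXK1, PGI1, PFK1 and PFK27 were at least 2-fold lower under all 11 alternatives that change single genes, and GLK1 under 5. The number of members at least 2-fold lower was 8 with upper quartile scaling, 7 with centring on the median gene and 7 with the trimmed mean. It was 4 relative to length and 6 at a 4-fold threshold. In the same order, the number of lower glycolysis genes was 7, 6, 6, 4 and 5. The members' median was -2.23 and -1.99 with pseudocounts of 0.1 and 5 FPKM, -3.22 with equal FPKM totals, -1.47 with upper quartile scaling, -1.27 with centring on the median gene, -1.28 with the trimmed mean of M values and -0.83 relative to length. It was -1.72 and -2.40 with MF02 column 1 or 2 alone and -2.11 with UV02_HG column 1 alone. The median of all features was -0.89 as deposited, -1.87 with equal totals, -0.26 with upper quartile scaling, 0 after centring and -0.02 with the trimmed mean. Features at least 2-fold lower numbered 2967 as deposited, 4307 with equal totals, 1722 with upper quartile scaling and 1296 with centring. They numbered 1424 with the trimmed mean, 951 relative to length and 1118 at 4-fold. Features at least 2-fold higher numbered 927 as deposited, 296 with equal totals, 1504 with upper quartile scaling, 1797 with centring, 1813 with the trimmed mean and 307 at 4-fold. The HXK2 share was 10.4% and 2.69% in UV02_HG columns 1 and 2 and 4.45% and 14.9% in MF02 columns 1 and 2. The PFK1 share was 29.8% and 46.7% in MF02 columns 1 and 2. Without division by length, the shares in reads were 4.90% in UV02_HG and 8.07% in MF02 for HXK2, 43.4% in MF02 for PFK1, and 76.6% in UV02_HG and 49.3% in MF02 for PFK26. The strains' order of the PFK26 share was thus kept. The cause of these shifts was not tested, other than that a higher threshold leaves fewer genes past it. No paired analysis was possible because the labels give 1 sample per strain and no replicate numbers.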

Other observations

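Of 1409 features outside the lists with a mean of at least 100 FPKM, the 5 whose centred log2 values over the 4 columns of the 2 samples lay closest to the mean profile of the upper glycolysis genes were SAC6, PMT2, RTN1, RPT6 and SHB17. Their root mean square distances were 0.07, 0.08, 0.09, 0.09 and 0.10 on the log2 scale. Among the upper glycolysis genes themselves the distance to that mean ran from 0.27 (PFK2) to 1.07 (GLK1). SHB17, which encodes a sedoheptulose bisphosphatase, had 51.2 and 45.9 FPKM in UV02_HG and 183 and 291 FPKM in MF02. SAC6, the fimbrin gene, had 76.8 and 85.1 FPKM in UV02_HG and 295 and 426 FPKM in MF02. The 5 were taken as the closest of all candidates, so their closeness is set by the choice, and they reached the 100 FPKM mean through MF02, since each was under 100 FPKM in both UV02_HG columns. The likeness rests on 4 columns and on the difference between 2 samples.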
